A study of Mus musculus with 8 samples.

Results

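Voltage-gated sodium and potassium channel genes were examined on 8 Agilent 2-colour arrays of sciatic nerve from male mice, all 60 days old. A gene belonged to the set when its name on the array was Scn with a number and the letter a or b, or began with Kcn, and each was read through the probe with the brightest nerve signal. The rule gave 109 genes, 14 Scn and 95 Kcn, among 34821 gene names. It is wider than the voltage-gated channels: the Kcnj, Kcnk, Kcnn, Kcnt and Kcnu genes encode relatives with other gating, the Kcnab, Kcne, Kcnip and Kcnmb genes encode auxiliary subunits, and 2 members, Kcnq1ot1 and Kcnrg, encode no channel subunit.

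The 8 nerves were 4 wild-type and 4 SOD1G93A, the latter transgenic for a mutant human SOD1 and used to model amyotrophic lateral sclerosis. The 4 nerves of a group are biological replicates per the series text. Nerve RNA carried Cy3 on each array. The other dye, Cy5, carried a common reference, a pool of RNA from neonatal heart, liver and kidney of both genotypes, so a log2 ratio of Cy3 over Cy5 above 0 means more signal in nerve than in that pool. No array had the dyes swapped, so a ratio also holds any dye bias of its probe. The labels do not give the promoter or the line of the transgene.

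A peripheral axon fires through sodium channels packed at the node of Ranvier. A pore-forming alpha subunit makes each of these channels, and beta subunits tether and tune it. Beside the node, under the myelin, Kv1 potassium channels lie in the juxtaparanode and damp repeated firing. The axon's messenger RNA is made mostly in cell bodies in the spinal cord and the dorsal root ganglia, outside the nerve, whereas Schwann cells, fibroblasts, vessels and immune cells transcribe in the nerve itself. Glial potassium channels, the inward rectifiers among them, take up potassium released by firing axons.

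The sample was checked against marker genes. All 19 Schwann cell markers on the list were measured, with a mean log2 ratio of 4.30 to 4.78 on wild-type and 4.55 to 5.02 on SOD1G93A arrays. Of 17 neuron markers, 11 were measured, at 0.50 to 0.79 and 0.49 to 0.76, and Elavl4, Syt1, Chat, Rbfox3 and Slc17a6 were not well above background on any array. Skeletal muscle markers, 13 measured of 18, stood at 2.17 and 1.34 on wild-type replicates 1 and 2, and between -1.22 and -0.83 on the other 6 arrays. The mean over the endothelial markers, 14 of 14 measured, did not overlap, at -0.75 to -0.28 in wild-type and -1.27 to -0.79 in SOD1G93A nerves. Some single endothelial genes did overlap, such as Kdr at 0.07 to 0.36 and 0.04 to 0.75. Smooth muscle and pericyte markers (13 of 14) stood at 0.95 and 0.69 on wild-type replicates 1 and 2 and at -0.59 to -0.002 on the others, and adipocyte markers (11 of 12) at 2.48 to 3.95 and 1.51 to 2.79. Macrophage markers (13 of 15) stood at 0.36 to 0.74 in wild-type nerve and at 0.34, 1.12, 1.29 and 1.47 in SOD1G93A nerve, and perineurial markers (8 of 8) at 1.67 to 2.16 and 1.64 to 2.27. The mean log2 ratios of the heart, liver and kidney markers were below 0 on every array. Of these markers 8 of 9 for heart, 5 of 9 for liver and 2 of 9 for kidney were measured. Single genes could differ: the liver marker Trf was above 0 on every array, with a wild-type mean of 1.31. The kidney marker Cubn was at 0.06 on wild-type replicate 3. The median Cy3 intensity of kept probes was highest for wild-type replicate 1, 713.5, lowest for SOD1G93A replicate 1, 374, and between 526.7 and 597.7 for the others. The arrays shared 1 slide, on which genotype and position cannot be told apart.

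The Agilent probes that carry the largest ratios and the smallest genotype p-values are shown by the first 30 of their 60 bases, 5′ to 3′ as the array files give them, with the mm9 position of the whole probe. They show the letters each value was read through. No stretch over 11 bases of a whole probe was shared with another member's probe, and other transcripts were not compared. The 4 probes with the highest nerve-over-reference ratios come before the 2 with the smallest genotype p-values.
Kcna1, chr6:126586524-126586583, minus strand: gcgcatagttttcatctatgcaattttact
Kcna6, chr6:126658424-126658483, minus strand: gagagttgctggtctgatcaaaggagagga
Kcna2, chr3:106909700-106909759, plus strand: actcacatgactgaactttggggattaatc
Kcnmb4, chr10:115854977-115855036, minus strand: ccctcaaagaagtcggttttctttggaaag
Kcnj12, chr11:60884556-60884615, plus strand: tcaggctgcttgtgaccatgttaacgattc
Kcnab1, chr3:65181718-65181777, plus strand: ggggtttttgttgttgttttgttttctgta
Whether a probe lies in an exon's coding part or in a UTR was not analysed here.

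The first question was which channel genes are found in nerve at all. A gene was taken as measured when 4 or more of the 8 arrays gave its probe a Cy3 signal well above local background. By this rule 37 of the 109 channel genes were measured, 33.9% against 44.1% of all gene names, 31 of them on all 8 arrays and 6 on 4 to 7. Another 16 reached this level on 1 to 3 arrays, and 56 on none. A signal under this level is a limit of the array and does not show that the RNA is absent. In bulk RNA, fewer cells of a type and less RNA per cell cannot be told apart.

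Of the sodium channel genes 9 of 14 were measured, and of the Kcn genes 28 of 95. Among the potassium channel families the Kv1 genes were measured at 5 of 8, the 2-pore domain genes, which set resting potassium leak, at 6 of 14, and the inward rectifiers at 4 of 15. The modifier subunits (Kcnf, Kcng, Kcns, Kcnv), which are silent alone and change partner channels, gave 1 of 10. Kv2 to Kv4 gave 2 of 9, the EAG, ERG and ELK genes 2 of 8, and the auxiliary subunits Kcnab, Kcne and Kcnip 3 of 12. The calcium- or sodium-activated channels with their relatives, here counted with the auxiliary Kcnmb genes, gave 3 of 12.

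**Figure D1:**
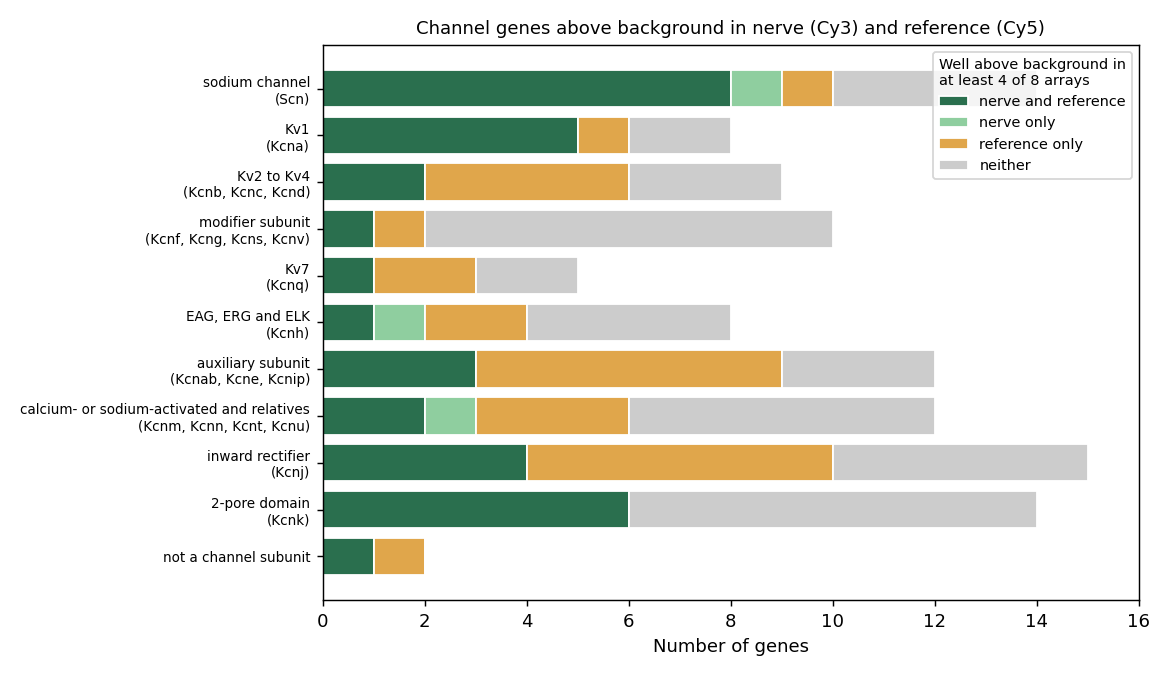
Number of channel genes (x axis) in each family (y axis), coloured by whether the probe was well above background on at least 4 of 8 arrays in nerve (Cy3), in the reference (Cy5), in both or in neither. Of the 14 sodium channel genes 9 were measured in nerve, while no modifier subunit gene other than Kcns3 was.

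Set against the reference, 34 members were well above background in both channels, 3 in nerve alone (2.75% against 0.695% of all gene names), 27 in the reference alone (24.8% against 13.3%) and 45 in neither (41.3% against 42.7%). These classes rest on each gene's probe with the brightest nerve signal, and for Scn3a, Kcnj11 and Kcnn3, classed in neither, another probe showed the reference on all 8 arrays. The 3 in nerve alone were Scn2a1, Kcnh8 and Kcnu1. The other probes of Scn2a1 and Kcnh8 were well above background on no nerve array, so each of these 2 results rests on 1 probe. Kcnu1 had 1 probe on the array. Scn2a1, now Scn2a, encodes an alpha subunit of central axons, and reached this level on 3 of 4 arrays in either genotype. Its nerve level was at least 1.42-fold that of the reference. Kcnh8, an ELK channel gene, was also at 3 of 4 in each genotype, with at least 1.65-fold. These bounds, and those below, come from the separate dye channels on the wild-type arrays, take the dim side as no lower than the weakest signal well above background, and are open to dye bias. Kcnu1, whose channel is best known from sperm, was well above background in nerve on all 8 arrays and in the reference on 2.

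Among the 27 seen in the reference alone, 19 stayed under that level on every wild-type nerve array, and for 5 of these the reference was at least 2-fold higher. Kcne2, an auxiliary subunit gene, led with at least 10.3-fold. Kcng2, a modifier subunit gene, followed with at least 4.09-fold and Kcnj15, an inward rectifier gene, with at least 3.93-fold. Kcnj1, the renal outer medullary channel gene, had at least 3.38-fold and Kcnj16, another kidney inward rectifier gene, at least 3.35-fold. Scn10a, the alpha subunit gene of sensory neurons, was on no nerve array and on all 8 reference arrays, at least 1.68-fold higher in the reference. Kcnma1, the pore gene of the BK channel, was well above background in nerve on 1 array.

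The members in neither channel include neuronal channel genes. Scn1a, Scn9a and Scn11a, Kcnq3 and Kcnc1 were well above background on no nerve array. Kcna3 and Kcna10 gave the same result. Kcnk2, a mechanically gated leak channel gene, and Kcnt1, a sodium-activated channel gene, lay just under the limit with 3 arrays, as did Kcnn2 and Kcnq1, which the reference showed on all 8. Just inside it lay Kcne4 and Scn4a, each on 2 of 4 arrays of each genotype.

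Neighbouring genes of a family differed in whether nerve RNA was seen. Kcna5, Kcna1 and Kcna6 have probes within 175 kb on chromosome 6 (mm9), and Kcna1 and Kcna6 were well above background in nerve on 8 arrays while Kcna5 was on none. Of Kcna3, Kcna2 and Kcna10, within 158 kb on chromosome 3, only Kcna2 was measured. In the group of 5 alpha subunit genes within 1181 kb on chromosome 2, Scn2a1 and Scn7a were measured and Scn3a, Scn1a and Scn9a were on no nerve array.

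The next question was how nerve levels stand against the reference pool. A gene was called higher or lower when the mean of the 4 wild-type arrays differed from 0 at a limma adjusted p under 0.05 and by at least 2-fold, a log2 ratio of 1. Of the 37 measured genes, 12 were called higher (32.4% against 14.1% of all 15344 genes tested) and 1 lower (2.70% against 8.75%). The other 24 lay within 2-fold. The median log2 ratio was 0.51 over the 37 members and 0.08 over all genes. An offset of 50 was added to both dyes, which pulls the ratios of dim probes towards 0. With Agilent's processed signals, which have no such offset, 16 members were called higher. Kcnk5 stood at 3.29, Scn2b at 2.78, Kcnab1 at 2.18 and Scn4b at 1.90, against 1.70, 1.49, 1.25 and 1.05 here. Kcnn4, Kcnu1 and Scn2a1 were called as well, at 2.54, 2.97 and 3.27 against 0.83, 0.82 and 0.51. The reference was well above background on 2 arrays for Kcnu1 and on none for Scn2a1, so their ratios are not exact. Since a gene had to show in nerve to be tested, the shares called higher and lower lean towards genes high in nerve. When probes well above background in either dye were taken, a choice made after seeing the data, 12 of 67 members were called higher (17.9% against 10.7%) and 9 lower (13.4% against 10.2%). The 8 further lower ones were Kcnj5, Kcne2, Kcnq1, Kcnj1, Kcng2, Kcnj15, Kcnj16 and Scn10a. They entered this test through the reference, and their nerve signal was well above background on 0 to 3 arrays, so their ratios are not given as values. Kcnj5, the subunit gene of the atrial potassium channel opened by acetylcholine, was seen in nerve on 1 array and Kcnq1, whose channel repolarises the heart, on 3. For Scn10a the bound of 1.68-fold is under the 2-fold asked for.

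**Figure D2:**
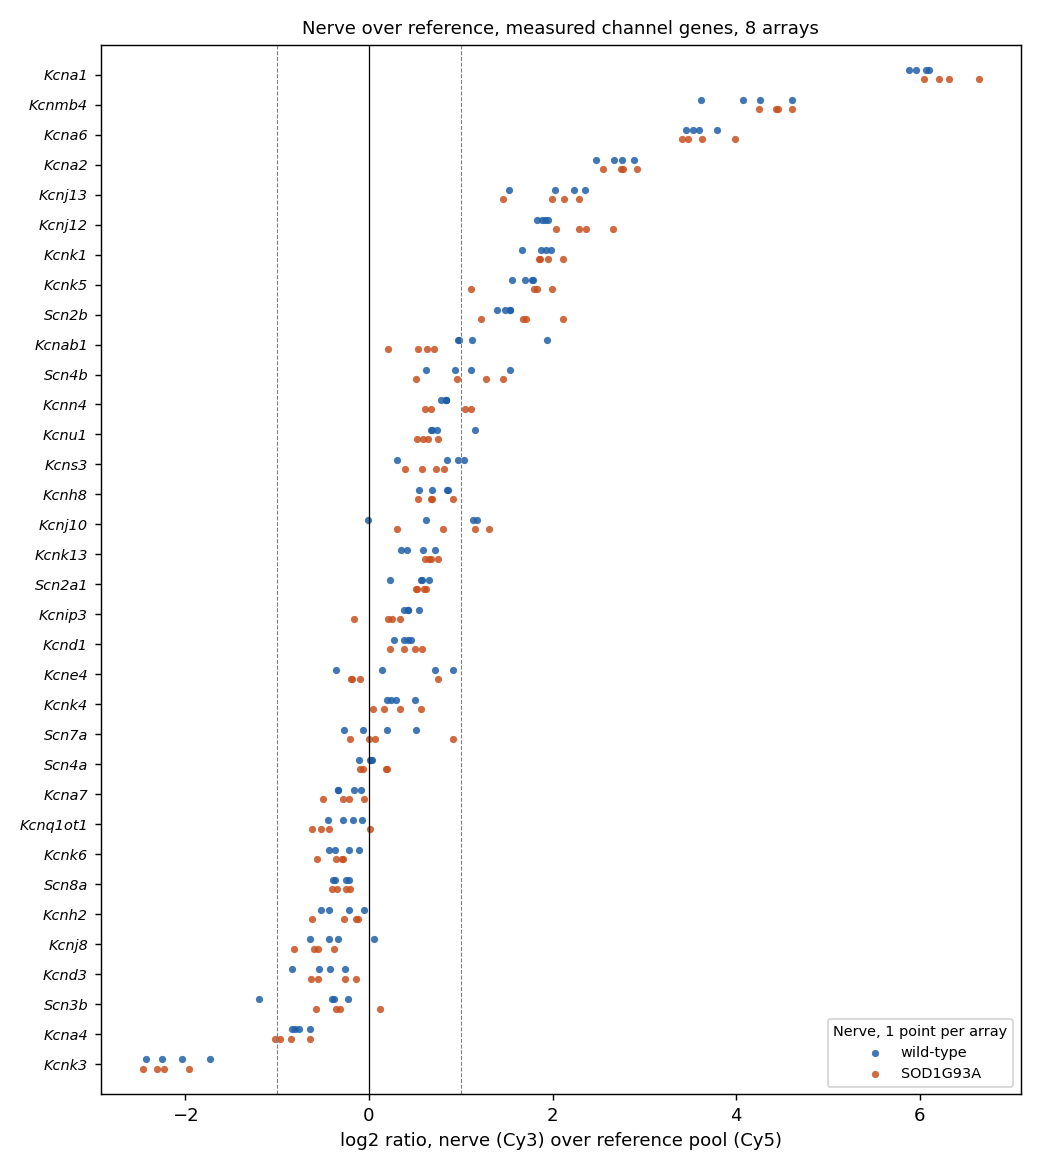
Log2 ratio of nerve over reference (x axis) for 34 of the 37 measured channel genes (y axis), 1 point per array, wild-type in blue and SOD1G93A in orange, ordered by the wild-type mean. The solid line marks equal signal and the dashed lines 2-fold, and Kcna1 stands furthest from the reference at 5.88 to 6.64 over the 8 arrays.

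Kv1 genes gave 3 of the 4 highest ratios. Kcna1 encodes the juxtaparanodal channel subunit Kv1.1, whose mutation causes episodic ataxia. Here and below, array values are given in the order of replicates 1 to 4. Its log2 ratio was 5.88, 6.10, 6.07 and 5.95 on the wild-type arrays and 6.64, 6.21, 6.04 and 6.32 on the SOD1G93A arrays. All 8 values lay far above the reference, and the wild-type mean, with an SD of 0.10 on the log2 scale (n = 4), is a 64.1-fold difference (limma adjusted p = 9.97e-11). Kcna1 had 1 probe on the array, so this size could not be compared with another probe. Kcna2 encodes its partner Kv1.2. Kcna2 gave 2.48, 2.67, 2.76 and 2.89 on the wild-type arrays and 2.92, 2.77, 2.74 and 2.55 on the SOD1G93A arrays, with genotypes that overlap. The wild-type mean of 2.70 ± 0.17 (SD, n = 4) is 6.49-fold.

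Kcna6 encodes Kv1.6, which joins the same tetramers. Its brightest probe gave 3.45, 3.60, 3.53 and 3.79 on the wild-type arrays and 3.99, 3.63, 3.47 and 3.41 on the SOD1G93A arrays, a wild-type mean of 3.59 ± 0.14 (SD, n = 4), or 12.1-fold. Kcna6 and Kcna2 were not uniform over their probes. The other kept Kcna6 probes gave 0.63 and 0.53, and the other kept Kcna2 probe 0.87. The reference was not well above background on any array for the first Kcna6 probe and for the Kcna2 probe. The ratios of those dimmer probes are therefore not exact. For Kcna6 the third probe was above background in both dyes on all 8 arrays, and its ratio was still below that of the brightest probe. The part of the offset in this was not tested. Kcna4, the A-type subunit gene, lay on the other side at -0.76 ± 0.09 (SD, n = 4, limma adjusted p = 5.75e-06), short of 2-fold. Kcna7, a subunit gene of heart and skeletal muscle, gave -0.23 ± 0.13.

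Kcnmb4 encodes the beta4 subunit that slows the BK channel and alters its toxin binding. Its log2 ratio was 3.62, 4.08, 4.25 and 4.61 on the wild-type arrays and 4.60, 4.25, 4.44 and 4.46 on the SOD1G93A arrays. The groups overlapped, and the wild-type mean of 4.14 ± 0.41 (SD, n = 4) is 17.6-fold (limma adjusted p = 3.45e-09). A further kept Kcnmb4 probe gave 2.60 ± 0.24 (SD, n = 4), lower and also above 2-fold. The other members of this group were nearer the reference: Kcnn4, the intermediate-conductance calcium-activated channel gene, at 0.83 ± 0.03 (SD, n = 4) and Kcnu1, with the reference above background on 2 arrays, at 0.82 ± 0.23. With Agilent's processed signals, which have no offset, Kcnn4 stood at 2.54 and Kcnu1 at 2.97.

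The promoters of 3 of these genes are given from RefSeq, as the 250 bases before the start on GRCm38.p6. That of Kcna5 is given as well, a neighbour of Kcna6 that was well above background on no nerve array. In all, 80 of the 109 members had an entry. The windows are shown so that genes with high nerve-over-reference ratios can be read beside one not seen well above background in nerve. The TATA box was searched as TATAAA. The GC box was searched as its core, GGGCGG. The core of SOX sites was searched as ACAAAG. Both strands were read, and capitals mark matches.
Kcna6, chr6:126740675-126740924, minus strand: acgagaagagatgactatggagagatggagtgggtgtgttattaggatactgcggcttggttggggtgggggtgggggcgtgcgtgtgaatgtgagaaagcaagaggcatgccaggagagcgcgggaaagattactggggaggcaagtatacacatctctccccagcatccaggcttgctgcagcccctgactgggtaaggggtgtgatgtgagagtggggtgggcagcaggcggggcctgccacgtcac
Kcna2, chr3:107101317-107101566, plus strand: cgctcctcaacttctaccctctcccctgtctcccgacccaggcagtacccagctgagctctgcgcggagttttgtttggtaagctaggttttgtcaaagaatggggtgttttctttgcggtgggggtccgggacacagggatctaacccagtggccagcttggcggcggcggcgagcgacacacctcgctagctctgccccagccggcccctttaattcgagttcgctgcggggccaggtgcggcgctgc
Kcnmb4, chr10:116473524-116473773, minus strand: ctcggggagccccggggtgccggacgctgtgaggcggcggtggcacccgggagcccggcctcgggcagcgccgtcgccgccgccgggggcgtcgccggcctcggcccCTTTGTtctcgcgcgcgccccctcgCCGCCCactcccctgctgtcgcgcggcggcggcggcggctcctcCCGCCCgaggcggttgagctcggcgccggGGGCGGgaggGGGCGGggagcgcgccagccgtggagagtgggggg
Kcna5, chr6:126535556-126535805, minus strand: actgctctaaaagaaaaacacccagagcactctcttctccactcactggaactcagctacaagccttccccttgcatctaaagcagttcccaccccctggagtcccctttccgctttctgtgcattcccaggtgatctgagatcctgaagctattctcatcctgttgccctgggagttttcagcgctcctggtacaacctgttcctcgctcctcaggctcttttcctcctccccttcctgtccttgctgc
Only the Kcnmb4 window held matches, 4 of the GC box and 1 of the SOX core. Among all 32851 windows of the table, searched over the same length, 32.7% held the GC box, 16.5% the SOX core and 12.4% the TATA box. The GC content was 83.6% for Kcnmb4, 62.4% for Kcna2, 58.8% for Kcna6 and 53.2% for Kcna5, with 43, 18, 8 and 3 CpG pairs. A match is a run of letters and says nothing of a factor's binding.

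The inward rectifiers and 2-pore channels held 4 more of the 12 genes called higher. Kcnj13, the gene of the low-conductance rectifier Kir7.1, gave 2.03, 2.24, 2.35 and 1.52 on the wild-type arrays and 1.46, 2.13, 2.29 and 1.99 on the SOD1G93A arrays. Its wild-type mean was 2.03 ± 0.36 (SD, n = 4) and its neighbouring probe gave 1.96, so both probes placed it near 4-fold. Kcnj12, the gene of the strong rectifier Kir2.2, had a wild-type mean of 1.90 ± 0.05 (SD, n = 4), a 3.72-fold difference (limma adjusted p = 3.79e-08). Kcnj10 encodes Kir4.1, the potassium-buffering channel of glia. Kcnj10 gave -0.01, 0.62, 1.14 and 1.18 on the wild-type arrays and 0.81, 1.16, 0.31 and 1.31 on the SOD1G93A arrays. The spread was wide in both groups, and the wild-type mean of 0.73 ± 0.56 (SD, n = 4) did not reach 2-fold. Kcnj8, the pore gene of the vascular ATP-sensitive channel, was at -0.34 ± 0.30.

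Kcnk1 (TWIK1) and Kcnk5 (TASK2) were the 2-pore genes called higher by at least 2-fold. Kcnk1 gave 1.66, 1.93, 1.98 and 1.87 on the wild-type arrays and 2.11, 1.95, 1.85 and 1.86 on the SOD1G93A arrays, close together on all arrays, with a wild-type mean 3.63-fold above the reference. Kcnk5 gave 1.70 ± 0.10 (SD, n = 4), or 3.26-fold. Kcnk3 (TASK1), an acid-sensitive leak channel gene with known high levels in heart, was the single measured gene called lower. Kcnk3 gave -1.73, -2.03, -2.43 and -2.25 on the wild-type arrays and -1.96, -2.23, -2.47 and -2.30 on the SOD1G93A arrays. All 8 values lay below the reference, and the wild-type mean was 4.32-fold lower (limma adjusted p = 1.18e-07). Kcnk13 and Kcnk4 lay above the reference by under 2-fold, at 0.52 and 0.31 (limma adjusted p = 6.96e-05 and 0.00942), and Kcnk6 below it at -0.28.

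Among sodium channel genes the beta subunit genes Scn2b and Scn4b were called higher. Scn2b, whose subunit binds the alpha subunit through a disulfide bridge, gave 1.53, 1.48, 1.40 and 1.53 on the wild-type arrays and 1.22, 1.68, 2.11 and 1.71 on the SOD1G93A arrays. The genotypes overlapped, and the wild-type mean was 1.49 ± 0.07 (SD, n = 4), 2.80-fold above the reference. Scn4b, linked to resurgent current, gave 1.53, 1.11, 0.62 and 0.94 on the wild-type arrays and 0.51, 1.28, 1.46 and 0.96 on the SOD1G93A arrays. Its wild-type mean of 1.05 ± 0.38 (SD, n = 4) passed the 2-fold limit only narrowly and was 0.89 without wild-type replicate 1, where skeletal muscle markers were at 2.17, and their part in this value was not tested. Scn3b gave -0.55 ± 0.44, below the reference and within 2-fold.

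The alpha subunit genes Scn4a, Scn7a and Scn8a lay between -0.31 and 0.09. Scn8a encodes Nav1.6, the main channel of mature nodes. Scn8a gave -0.40, -0.25, -0.37 and -0.22 on the wild-type arrays and -0.21, -0.25, -0.35 and -0.40 on the SOD1G93A arrays, all below the reference by under 2-fold. Of its 3 probes the other 2 were well above background on no array. Scn7a encodes Nax, a sodium-sensing relative found in non-myelinating Schwann cells. Scn7a gave -0.07, -0.28, 0.20 and 0.52 on the wild-type arrays and 0.92, -0.0037, 0.07 and -0.20 on the SOD1G93A arrays. The values spread on both sides of 0 in each group. Scn4a, the skeletal muscle channel gene, gave -0.01 ± 0.07 (SD, n = 4).

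Of the remaining genes described here, Kcnab1 was above 2-fold. Kcnab1 encodes the Kv beta1 subunit, which inactivates Kv1 channels, and its wild-type mean was 1.25 ± 0.46 (SD, n = 4), 2.38-fold above the reference (limma adjusted p = 4.19e-05). Kcnip3, a calcium-binding partner of Kv4 channels, gave 0.45 ± 0.07, and the Kv4 genes Kcnd1 and Kcnd3 gave 0.39 ± 0.08 and -0.52 ± 0.24. Kcns3, a modifier subunit gene, gave 0.79 ± 0.33. Kcnh2, the ERG channel gene, gave -0.31 ± 0.21. The auxiliary subunit gene Kcne4 gave 0.35 ± 0.58.

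The study's own comparison was SOD1G93A against wild-type nerve. No measured channel gene was called at a limma adjusted p under 0.05, 0 of 37, against 0.163% of the 15344 genes tested (25 genes). At an unadjusted p under 0.05 there were 4 of 37, or 10.8%, against 11.4% of all genes. The groups did not overlap for 3 members, Kcnj12, Kcnab1 and Kcnip3, 8.11% against 7.98%. The SOD1G93A mean was higher for 20 members and lower for 17, a share higher of 54.1% against 45.3%, and the median difference was 0.005 on the log2 scale against -0.02. These shares are near those of all genes. The standard errors of the 37 differences ran from 0.08 to 0.30, so shifts of that size were not resolved with 4 arrays a group. Larger ones did not pass either, up to the largest difference, -0.73 for Kcnab1.

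**Figure D3:**
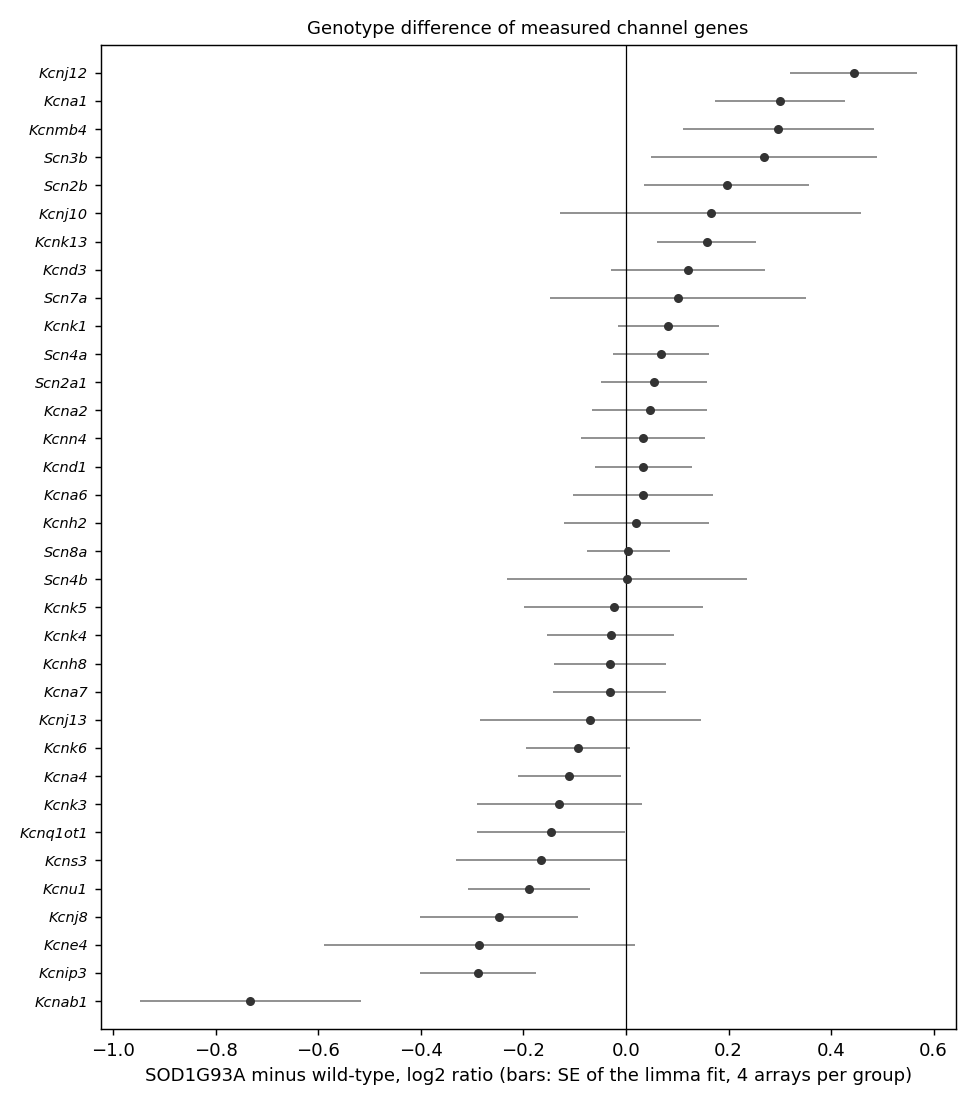
Difference of the log2 ratio, SOD1G93A minus wild-type (x axis), for 34 of the 37 measured channel genes (y axis), with bars of 1 standard error of the limma fit (n = 4 arrays per group). Kcnj12 lies highest at 0.44 and Kcnab1 lowest at -0.73, and 0 of the genes shown passed the adjusted threshold.

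Kcnj12 had the smallest p. Its log2 ratio was 1.83, 1.92, 1.88 and 1.95 on the wild-type arrays and 2.66, 2.29, 2.04 and 2.36 on the SOD1G93A arrays. All 4 SOD1G93A values lay above all 4 wild-type values, which kept within a narrow range. The difference was 0.44 ± 0.12 (SE), with an unadjusted p of 0.00542 and a limma adjusted p of 0.221. With 1 array left out at a time it ran from 0.34 to 0.54. It was lowest without SOD1G93A replicate 1, the highest Kcnj12 array, on which Schwann cell markers were also highest at 5.02. The part of those markers in the Kcnj12 difference was not tested.

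Kcnab1 had the largest difference in size. Its log2 ratio was 1.94, 1.12, 0.98 and 0.97 on the wild-type arrays and 0.21, 0.53, 0.63 and 0.71 on the SOD1G93A arrays. Wild-type replicate 1 stood apart at the top and SOD1G93A replicate 1 at the bottom. The difference of -0.73 ± 0.22 (SE, limma adjusted p = 0.25) was -0.50 without the former, and -0.40 without both arrays numbered 1 (adjusted p = 0.0696). Skeletal muscle markers were also highest on wild-type replicate 1, at 2.17, and stood at 1.34, -1.04 and -0.83 on the other wild-type arrays and -1.22 to -0.98 on the SOD1G93A arrays. Their part in the Kcnab1 difference was not tested.

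Kcnip3 gave 0.38, 0.43, 0.55 and 0.43 on the wild-type arrays and -0.16, 0.34, 0.21 and 0.25 on the SOD1G93A arrays. Each SOD1G93A value lay under the lowest wild-type value, and SOD1G93A replicate 1 was the 1 value below the reference. The difference was -0.29 ± 0.11 (SE, limma adjusted p = 0.378), and -0.18 without that array. Kcna1, whose values are given above, was higher by 0.30 ± 0.13 (SE, limma adjusted p = 0.416) with overlap at SOD1G93A replicate 3. The Kcna1 difference was 0.19 without SOD1G93A replicate 1, its highest array, on which Schwann cell markers were also highest at 5.02. The part of those markers in it was not tested.

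**Figure D4:**
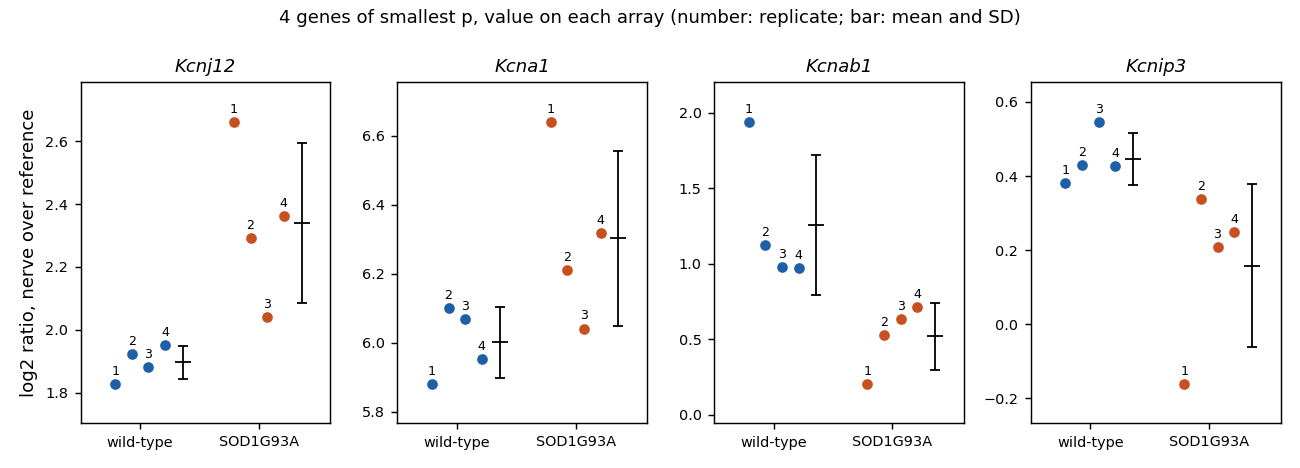
Log2 ratio of nerve over reference on each array (y axis, a scale of its own in each panel) for the 4 channel genes of smallest p, by genotype (x axis), with replicate numbers above the points and the mean and SD beside them (n = 4 per group). The arrays numbered 1 lie at the outer ends of Kcnab1, at 1.94 in wild-type and 0.21 in SOD1G93A nerve.

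The 5 further genes described here from the 10 with the smallest p overlapped between genotypes and did not pass. Kcnmb4 differed by 0.30 ± 0.19 (SE, limma adjusted p = 0.577), while its further probe gave 0.02. Without wild-type replicate 1 the difference was 0.12, and without wild-type replicate 4 it was 0.45. Scn3b differed by 0.27 ± 0.22 (adjusted p = 0.672), and this was 0.05 without wild-type replicate 1, 0.14 without SOD1G93A replicate 1 and -0.08 without both. Its values were -1.19, -0.39, -0.22 and -0.40 on the wild-type arrays and 0.12, -0.31, -0.58 and -0.36 on the SOD1G93A arrays. Kcnj8 differed by -0.25 ± 0.15 (adjusted p = 0.569), and was well above background on 3 wild-type and 2 SOD1G93A arrays. The Kcnj8 difference was -0.12 without wild-type replicate 1, on which smooth muscle and pericyte markers were highest at 0.95. These stood at 0.69, -0.002 and -0.27 on the other wild-type arrays and -0.59 to -0.24 on the SOD1G93A arrays. The mean over the endothelial markers did not overlap between genotypes. The part of both lists in the Kcnj8 difference was not tested. Kcnu1 gave -0.19 ± 0.12 (-0.076 without wild-type replicate 3) and Kcnk13 0.16 ± 0.10 (0.10 without wild-type replicate 2).

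The 27 genes beyond these 10 ranged from -0.29 to 0.20, with standard errors of 0.08 to 0.30. The nodal alpha subunit gene Scn8a differed by 0.005 ± 0.08 (SE, limma adjusted p = 0.987), and Kcna2 and Kcna6 by 0.05 ± 0.11 and 0.03 ± 0.14. Scn2b differed by 0.20 ± 0.16. Scn4b differed by 0.002 ± 0.23, so its wide spread between arrays leaves a large interval. Kcnk1, Kcnk3 and Kcnk5 gave 0.08 ± 0.10, -0.13 ± 0.16 and -0.02 ± 0.18. The glial Kcnj10 gave 0.16 ± 0.29 (adjusted p = 0.855).

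Genes that work with these channels at the node, juxtaparanode and membrane were taken from a list of 53: anchors and adhesion molecules, the LGI and ADAM proteins that bind Kv1 channels, sodium pump subunits, pacemaker channels and others. Of 51 on the array, 34 were measured and 0 were called between genotypes, with 3 at an unadjusted p under 0.05, where 11.4% of all genes were. Means were higher in SOD1G93A nerve for 24 and lower for 10, with a median of 0.11, where 45.3% of all genes were higher and their median was -0.02. For some partners wild-type replicate 1 was lowest and SOD1G93A replicate 1 highest of its group, as for Gldn (3.79 and 4.71) and Nfasc (1.06 and 2.06). Others differed, such as Lgi1, lowest on SOD1G93A replicate 1 at 1.69. Schwann cell markers were lowest and highest on these arrays, at 4.30 and 5.02. Their part in the split was not tested, and the split was not worked out without these arrays. Against the reference, 17 of the 34 were called higher and 6 lower, shares that were 14.1% and 8.75% over all genes. The partners were chosen by their known place in nerve, and as for the channel genes the filter favours nerve signal.

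Lgi4, a secreted Schwann cell protein needed for myelination, had the highest wild-type ratio among these partners, at 4.86 ± 0.31 (SD, n = 4), and differed by 0.35 ± 0.15 (SE, limma adjusted p = 0.438), or 0.20 without wild-type replicate 1. Fxyd1, a pump regulator, gave 1.01, 0.97, 1.09 and 1.14 on the wild-type arrays and 1.33, 1.22, 1.33 and 1.22 on the SOD1G93A arrays. Its groups did not overlap, and the difference was 0.22 ± 0.08 (SE, limma adjusted p = 0.322). Adam23, which binds LGI proteins, and the paranodal adhesion gene Cntn1 each gave 0.47, with standard errors of 0.19 and 0.22. Adam23 was 0.30 without SOD1G93A replicate 1, and Cntn1 0.29 without wild-type replicate 1. Amigo1, a Kv2 partner, gave 0.21 ± 0.09 without overlap, and Lgi2 -0.28 ± 0.14, or -0.15 without both arrays numbered 1. Gldn, whose product gliomedin gathers nodal sodium channels, was at 4.16 ± 0.25 (SD, n = 4) in wild-type nerve, and the pump gene Atp1b1 at -5.66 ± 0.11. Of the anchors, Ank3, which encodes the nodal ankyrin G, was at 2.03 ± 0.14 and differed by 0.03 ± 0.09 (SE).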

How the data were processed

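Nerve RNA in Cy3 and a common reference in Cy5 were compared on 8 arrays, 4 wild-type and 4 SOD1G93A. Linear spot intensity, local background and flags were read from the deposited scanner files, which per the file headers were written by Agilent Feature Extraction 11.5.1.1. Version 11.0.1.1 and limma are named in the submitters' processing notes. The deposited series table holds log10 ratios equal to those of the scanner files.

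From the mean intensity and median local background, normexp correction (offset 50) and loess within arrays gave log2 ratios of Cy3 over Cy5. Spots flagged as non-uniform or as population outliers, 0.379%, and control spots were left out, and spots of a probe were averaged. In Cy3, 35.5% to 41.7% of an array's spots stood well above background and 0 were saturated. Probes well above background on at least 4 arrays were kept, and the brightest per gene name gave 15344 genes. Group means were fitted with lmFit and eBayes (limma 3.58.1, R 4.3.3), 2-sided, with Benjamini-Hochberg adjustment over all genes. Single-gene adjusted p-values come from this fit unless another setting is named. Each gene is named by the array design. The accessions of 105 members matched RefSeq, and 1 symbol had changed. The limma fit alone was tried on simulated log ratios. Their noise was drawn separately for each gene, so they hold no shift shared by the genes of an array.

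The members, the lists of partner and marker genes, and the tests were chosen with earlier results of these data known. Described were the measured Scn genes, the 10 Kcn genes of highest and 6 of lowest ratio, the 10 members and 6 partners of smallest p. Some of these genes are not reported here. Further genes were named after their values were seen. Alternatives covered background correction, normalization, the Cy3 channel alone, the filter, the fold limit, the choice of probe, array weights, a replicate block and leaving out arrays.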

Additional observations from a re-analysis of the deposited data

Results flagged for a closer look

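In 4 of the 70 groups of 4 arrays examined, 1 array stood apart from the other 3 by a gap past the 95% critical value of Dixon's test, and chance flags about 5% of such groups. All are log2 ratios of nerve over reference in wild-type nerve. Kcnab1, the Kv beta1 gene, was 1.94 on wild-type replicate 1 against 0.97 to 1.12 on the others. Kcnu1 was 1.16 on wild-type replicate 3 against 0.67 to 0.74. Kcnn4, the intermediate-conductance channel gene, was 0.79 on wild-type replicate 4 while the other 3 arrays were at 0.84. Scn4a, the skeletal muscle sodium channel gene, was -0.11 on wild-type replicate 2 against 0.01 to 0.03. Skeletal muscle markers on these arrays were 2.17, -1.04, -0.83 and 1.34 respectively, and their part in these values was not tested.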

How the results depend on the processing

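Over all 20 alternatives 0 members and 0 partner genes were called between genotypes (limma). Of all genes, 1 were called with the replicate block and up to 430 with array weights, against 25 in the main fit. Where the 37 measured members were tested, 2 to 6 had an unadjusted p under 0.05. With other filters these were 10 of 109, 4 of 31 and 5 of 67. The main fit gave 4 of 37, against 11.4% of all genes, and that share was not worked out for the alternatives. Adjusted p-values of the 10 members of smallest p ranged from 0.0696 to 1. The median difference over measured members, 0.005, was 0.049 with Agilent processed signals, 0.058 with the series table's log ratio and -0.039 without the 2 arrays numbered 1, and -0.02 to 0.02 with 1 array left out at a time, so its sign is not settled. The count of members higher in nerve than the reference, 12, was 16 with Agilent processed signals, 23 with no fold limit and 11 without wild-type replicate 1. The count lower, 1, was 9 with no filter on dim probes, 9 with probes above background in either dye and 9 with no fold limit. By construction these settings test more genes or ask for less.

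Of 272 values for genotype differences of 16 named genes, 271 kept direction and side of the threshold. Scn3b turned to -0.080 without the 2 arrays numbered 1. Of 406 values against the reference for 29 genes, 394 did. Another 6, 2 each for Kcnn4, Kcnu1 and Scn2a1, passed the limits for a call only in the alternative. For Scn4b 2 values no longer passed, and 4 values changed sign. Scn4a, near 0, turned to 0.25 with Agilent processed signals, 0.090 with median centring and 0.019 without wild-type replicate 2, its range with 1 array left out being -0.028 to 0.019. Scn7a turned to -0.047 without wild-type replicate 4, in a range of -0.047 to 0.217. The cause was not tested. With the replicate number as a block, 0 members and 1 of all genes were called. Same-numbered arrays had correlated deviations of -0.164 to 0.103, so the numbers were not read as pairs. The number of arrays limits the precision, and members not measured in nerve have only bounds there.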
